A study of Mus musculus with 60 samples.

Results

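The transcriptomes of Tet1-KO and wild-type (WT) C3H10T1/2 cells were compared before adipogenic induction, in 6 of the 60 libraries of the series: 3 labelled Tet1-KO at day 0 and 3 labelled WT at day 0. The members were taken by sample title from the first of a pair of gene-level FPKM tables and fitted alone, so that libraries of later days did not enter the spread. C3H10T1/2 is an established mouse line of mesenchymal progenitors that can become adipocytes when induced. Cells of both groups were grown in DMEM with 10% FBS and held 1 day past confluence, and day 0 is the day on which the medium was to be exchanged for the differentiation cocktail. Polyadenylated RNA was sequenced. The labels give the genotype and the day and nothing on how Tet1 was disrupted, which part of the gene was edited, how many clones the Tet1-KO cells represent or whether replicates were separate cultures. A difference between the genotypes and a difference between clones or cultures therefore cannot be told apart, and the p-values below speak only for the spread among these libraries, which may be technical.

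TET1 belongs to a family of dioxygenases, with TET2 and TET3, that oxidise 5-methylcytosine, the methylated base found mostly at CG dinucleotides in mammalian DNA. Oxidised bases are lost through DNA replication or are cut out by the glycosylase TDG and replaced, whereas DNMT1 with its partner UHRF1 copies methylation onto new strands and DNMT3A and DNMT3B add it anew. Methylated promoters rich in CG are usually silent, and imprinted genes and some germline genes are held in check in this way. In the preadipocyte, adipogenesis is led by C/EBP-beta and C/EBP-delta, then by PPAR-gamma and C/EBP-alpha.

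Tet1 mRNA was present at a low level in WT cells and lower still in Tet1-KO cells. Tet1 (chromosome 10, 62804570 to 62908996, minus strand, mm10) stood at 0.26, 0.24 and 0.25 FPKM in Tet1-KO libraries, against 0.88, 1.12 and 1.03 FPKM in WT libraries. No Tet1-KO library reached the lowest WT library, and the Tet1-KO mean was 24.8% of the WT mean. An exact permutation test (two-sided) gave p = 0.1, the smallest that 3 against 3 allows. Since the edited part of the gene is not given in the sources used here and the values are sums over a whole gene, residual Tet1 mRNA does not show how much protein was left. Mesenchymal markers were high in both genotypes, with Vim, an intermediate filament gene, at 6016, 5203 and 5320.2 FPKM in Tet1-KO libraries, against 5105, 5104 and 4986 FPKM in WT libraries. Of the defining markers of leukocytes, Ptprc stood at 0, 0 and 0.01 FPKM in Tet1-KO libraries, against 0, 0 and 0.01 FPKM in WT libraries, and Tyrobp was listed at 0 in all 6 libraries. The 10 macrophage and leukocyte markers together summed to 45.5–54.7 FPKM in Tet1-KO libraries and 13.7–15 FPKM in WT libraries, most of it from Lyz2 and Cd14. Only those 2 and Cd68 passed the filter, and their values are given below. Epithelial markers summed to 0.32–0.52 FPKM in Tet1-KO libraries and 0.3–0.67 FPKM in WT libraries, and none of the 8 passed the filter. In RNA from whole cultures, fewer cells of a type and less RNA per cell cannot be told apart.

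The 6 libraries held 14 to 18.2 M fragments, as read from the spacing of their lowest values, and 14660 to 14918 genes above 0. Pearson correlations of log2(FPKM + 1) were 0.994–0.996 within WT, 0.982–0.993 within Tet1-KO and 0.934–0.963 between the genotypes. Tet1-KO replicate 3 stood nearest to the WT mean of the 3 Tet1-KO libraries in 59.8% of genes tested. WT replicate 2 held more adipocyte transcripts than WT replicates 1 and 3, which is given beside those genes. Summed FPKM was 821480, 845011 and 690001 in Tet1-KO libraries, against 660539, 612993 and 613131 in WT libraries.

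Of 24982 genes, 11265 had at least 1 FPKM in 3 or more of the 6 libraries and were tested with limma. Calls were made where the p, adjusted over all of these genes by the method of Benjamini and Hochberg, was under 0.05. Differences are mean log2(FPKM + 1) in Tet1-KO minus the same in WT, ± SE, a scale that understates the change of weakly expressed genes. In Tet1-KO cells 2314 genes were higher (20.5% of those tested) and 3374 were lower (30.0%), 5688 in all (50.5%). The shares of every gene list below are to be read against these 20.5% and 30.0%. A difference of at least 1 log2 unit was reached by 353 higher genes (3.13%) and 532 lower genes (4.72%). The 3 values of one genotype lay wholly above or below those of the other in 6782 genes (60.2%). These counts depended on single libraries: higher genes numbered 1475, 1405 and 1384 without Tet1-KO replicate 1, WT replicate 2 or WT replicate 3, and lower genes 1839 and 1760 without WT replicate 2 or 3.

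**Figure D1:**
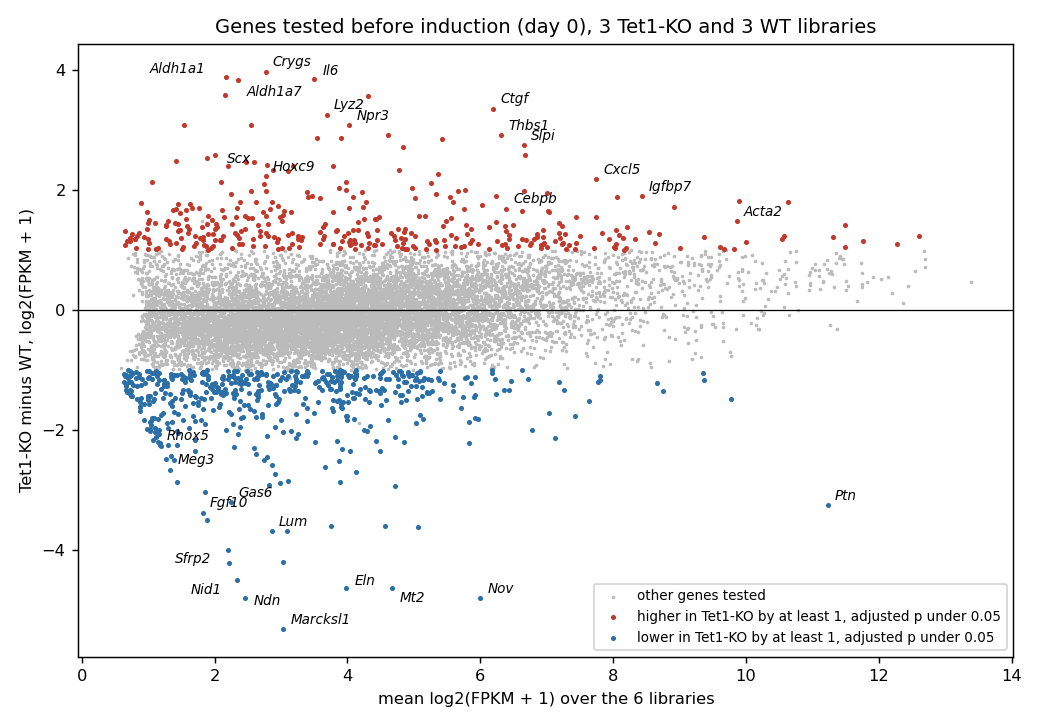
Difference in mean log2(FPKM + 1), Tet1-KO minus WT, of each of the 11265 genes tested at day 0 (vertical axis) against the mean over the 6 libraries (horizontal axis). The 353 genes higher and 532 genes lower by at least 1 log2 unit are coloured, and Marcksl1 lies lowest at −5.31 while Ptn stands apart among abundant transcripts at −3.26.

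The direction of the smaller differences moved with transcript length. Genes with a median transcript length of 500 bases or less had a median difference of 0.65, and those over 6000 bases −0.40, against −0.11 over all genes tested. Higher calls took in 56.5% of the shortest genes and 4.9% of the longest, and lower calls 4.03% and 55.2%. The slope was steepest in Tet1-KO replicates 1 and 2, where the median deviation from the WT mean was 0.85 and 0.88 in the shortest genes and −0.44 and −0.53 in the longest. Tet1-KO replicate 3 ran less steeply, with 0.31 and −0.21. WT replicate 1 leaned the same way, by 0.13 and −0.13. What part this slope has in single genes was not tested, and an alternative that subtracts it in each library was therefore added after seeing the data. It gave 2554 higher and 2497 lower genes, of which 304 and 421 by at least 1 log2 unit. Of all calls, 40.7% were higher on the deposited scale, against 50.6% with the length trend removed, 49.8% when all libraries were given the same quantiles and 50.6% when they were scaled to a median ratio. Differences with the length trend removed are given below wherever they change a call.

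**Figure D2:**
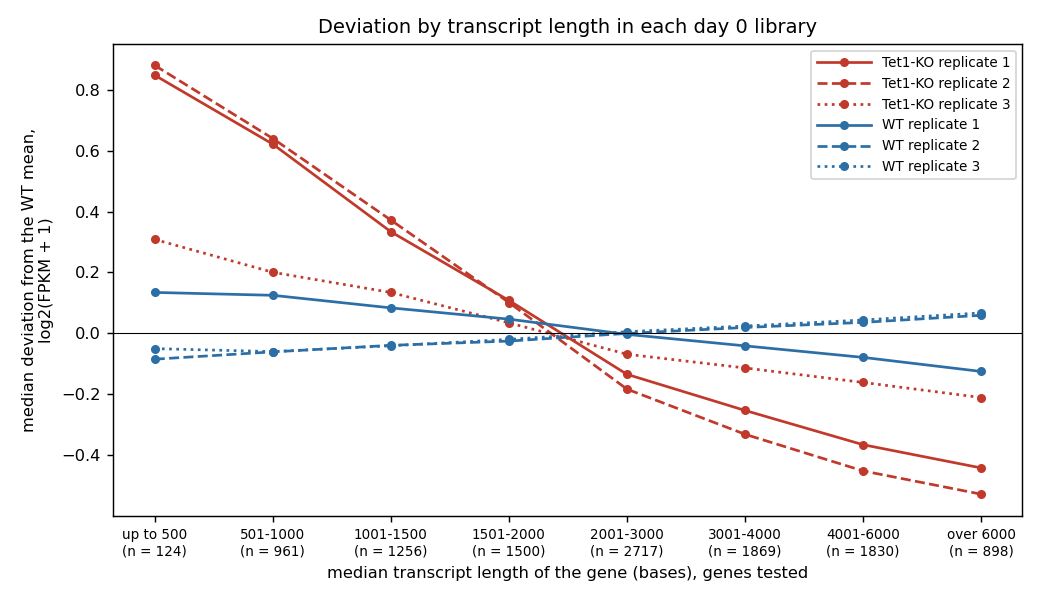
Median deviation from the WT mean in log2(FPKM + 1) (vertical axis) for genes grouped by median transcript length in bases (horizontal axis), one line per day 0 library. Tet1-KO replicates 1 and 2 fall from 0.85 and 0.88 in the shortest genes to −0.44 and −0.53 in the longest, Tet1-KO replicate 3 less, and the WT lines stay within 0.13 of 0.

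Some of the largest falls were of genes well expressed in WT and near 0 in Tet1-KO. Marcksl1, a MARCKS relative that binds actin (chromosome 4, 129513581 to 129515985, plus strand), stood at 0.29, 0.3 and 0.31 FPKM in Tet1-KO libraries, against 54.6, 48.7 and 49 FPKM in WT libraries, a difference of −5.31 ± 0.09 (adjusted p = 2.82e-08). Ndn, the imprinted gene for necdin (chromosome 7, 62346569 to 62350262, plus strand), stood at 0.09, 0 and 0.04 FPKM in Tet1-KO libraries, against 27.2, 30.8 and 26.1 FPKM in WT libraries, a difference of −4.80 ± 0.10 (adjusted p = 1.02e-07). Nid1, which encodes the basement membrane linker nidogen (chromosome 13, 13437551 to 13512269, plus strand), stood at 0.07, 0.08 and 0.05 FPKM in Tet1-KO libraries, against 19.3, 25.5 and 24.9 FPKM in WT libraries, a difference of −4.50 ± 0.12 (adjusted p = 2.38e-07). In each of these 3 genes no library of one genotype came near the other. Some of the largest rises were of genes under 1 FPKM in WT. Aldh1a7 (chromosome 19, 20692953 to 20727562, minus strand) stood at 16.5, 20.2 and 18.2 FPKM in Tet1-KO libraries, against 0.25, 0.56 and 0.28 FPKM in WT libraries, a difference of 3.82 ± 0.13 (adjusted p = 5.31e-07). Its neighbour Aldh1a1, a retinaldehyde dehydrogenase that makes retinoic acid (chromosome 19, 20492715 to 20643465, plus strand), stood at 17.2, 16.4 and 15.1 FPKM in Tet1-KO libraries, against 0.14, 0.2 and 0.17 FPKM in WT libraries, a difference of 3.88 ± 0.10 (adjusted p = 1.82e-07). The pair are close in sequence, so reads may have been shared between them. Others were already expressed in WT. Il6, the inflammatory cytokine (chromosome 5, 30013114 to 30019981, plus strand), stood at 45.7, 50.2 and 31.6 FPKM in Tet1-KO libraries, against 2.66, 1.09 and 2.44 FPKM in WT libraries, a difference of 3.85 ± 0.24 (adjusted p = 1.48e-05). Serpinb9b, a protease inhibitor of a large gene cluster (chromosome 13, 33027416 to 33041884, plus strand), stood at 66.9, 60.1 and 75.7 FPKM in Tet1-KO libraries, against 5.23, 4.47 and 4.68 FPKM in WT libraries, a difference of 3.56 ± 0.11 (adjusted p = 4.54e-07). The genotypes did not overlap in any of these genes, which the rule that named the largest rises and falls required. That separation is therefore no separate evidence, and 60.2% of all genes tested had it.

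Promoters of some of these falls and rises are shown, chosen after their CG counts were seen, to give the sequence behind the counts of CG below. Each is 250 bases before to 50 after the RefSeq start of transcription (build GRCm38.p6, the mm10 assembly), read 5′ to 3′ on the strand of the gene, with every CG in capitals. CG is its own reverse complement, so 1 strand shows the sites of both, and no CG overlaps another.
Marcksl1 (chr4:129513331-129513630, plus strand): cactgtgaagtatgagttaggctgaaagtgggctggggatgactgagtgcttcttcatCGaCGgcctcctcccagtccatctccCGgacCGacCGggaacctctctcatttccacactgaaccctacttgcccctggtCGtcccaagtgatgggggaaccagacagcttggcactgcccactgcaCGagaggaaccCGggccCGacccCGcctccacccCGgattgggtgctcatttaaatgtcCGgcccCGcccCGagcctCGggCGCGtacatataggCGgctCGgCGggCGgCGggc
Ndn (chr7:62348027-62348326, plus strand): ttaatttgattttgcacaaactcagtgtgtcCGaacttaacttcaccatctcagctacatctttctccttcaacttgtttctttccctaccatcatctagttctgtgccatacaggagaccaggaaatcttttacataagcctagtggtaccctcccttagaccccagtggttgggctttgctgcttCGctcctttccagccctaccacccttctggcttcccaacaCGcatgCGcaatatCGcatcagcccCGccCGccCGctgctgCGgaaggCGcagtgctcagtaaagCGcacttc
Nid1 (chr13:13437352-13437651, plus strand): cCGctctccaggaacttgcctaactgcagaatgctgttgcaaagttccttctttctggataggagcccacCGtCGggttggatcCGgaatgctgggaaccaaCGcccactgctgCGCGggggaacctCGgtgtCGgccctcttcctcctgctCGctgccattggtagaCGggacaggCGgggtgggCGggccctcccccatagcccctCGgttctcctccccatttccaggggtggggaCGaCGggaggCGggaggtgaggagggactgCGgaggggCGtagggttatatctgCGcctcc
Il6 (chr5:30012864-30013163, plus strand): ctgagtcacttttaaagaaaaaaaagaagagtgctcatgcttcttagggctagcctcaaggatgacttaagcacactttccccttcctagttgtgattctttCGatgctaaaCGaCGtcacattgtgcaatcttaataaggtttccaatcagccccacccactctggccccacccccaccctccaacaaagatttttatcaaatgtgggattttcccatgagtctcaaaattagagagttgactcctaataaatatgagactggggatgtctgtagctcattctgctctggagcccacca
Aldh1a7 (chr19:20727507-20727806, minus strand): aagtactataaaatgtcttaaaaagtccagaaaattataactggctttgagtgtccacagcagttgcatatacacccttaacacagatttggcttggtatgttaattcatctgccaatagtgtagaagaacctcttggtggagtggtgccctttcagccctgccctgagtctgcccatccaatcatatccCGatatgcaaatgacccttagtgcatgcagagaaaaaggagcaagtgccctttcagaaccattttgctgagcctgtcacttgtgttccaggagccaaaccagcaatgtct
Serpinb9b (chr13:33027164-33027463, plus strand): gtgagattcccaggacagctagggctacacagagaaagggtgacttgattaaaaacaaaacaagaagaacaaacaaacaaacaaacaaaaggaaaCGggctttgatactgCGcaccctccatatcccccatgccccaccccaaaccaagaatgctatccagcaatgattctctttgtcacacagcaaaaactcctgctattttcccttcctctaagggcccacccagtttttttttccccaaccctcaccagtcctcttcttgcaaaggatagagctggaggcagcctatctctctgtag
The falling Marcksl1, Ndn and Nid1 hold 22, 11 and 20 CG, and the rising Il6, Aldh1a7 and Serpinb9b hold 3, 1 and 2. Over the 15 largest falls and the 15 largest rises by the naming rule, a promoter was found for 12 falls, with a median of 20 CG (6 to 24), and for 11 rises, with a median of 3 (1 to 26). The 26 belongs to Plac9a, a gene for a small secreted protein, which stood at 49.2, 83.8 and 14.5 FPKM in Tet1-KO libraries, against 0, 10.4 and 14.2 FPKM in WT libraries (2.85 ± 1.00, adjusted p = 0.0432, 0.0972 with the length trend removed, and 0.133, 0.131 and 0.0669 without Tet1-KO replicate 1, Tet1-KO replicate 2 or WT replicate 1).

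Across all large calls the contrast was smaller, and both directions held fewer CG than the genes tested. Of the 353 genes higher by at least 1 log2 unit, 282 had a promoter, with a median of 15 CG. Of the 532 genes lower by at least 1, 410 had one, with a median of 19, and 9069 of all genes tested had one, with a median of 23. Each gene entered with 1 count, also where several promoters were listed for it. Fewer than 5 CG were found in 18.1% of the higher genes, 10.5% of the lower genes and 4.54% of all. At least 20 CG were found in 38.7%, 49.8% and 62.2%. At least 1 CG was present in 99.7% of all genes tested that had a promoter of this length. These counts describe letters in a window and say nothing of methylation, which was not measured in these libraries.

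Genes of the extracellular matrix were lower in Tet1-KO cells in larger numbers than they were higher. Elastic fibres are built from elastin on fibrillin scaffolds, with emilins and fibulins bound to them and lysyl oxidases as cross-linkers. Of 19 elastic fibre and lysyl oxidase genes tested, 3 rose (15.8%) and 11 fell (57.9%), against 20.5% and 30.0% of all genes tested, and 9 of the falls reached 1 log2 unit, with a median difference of −0.50 (−0.32 with the length trend removed). Eln, which encodes elastin, stood at 2.05, 1.77 and 2.74 FPKM in Tet1-KO libraries, against 77.9, 76.4 and 78 FPKM in WT libraries, a difference of −4.63 ± 0.12 (adjusted p = 1.93e-07). Emilin2, a glycoprotein of the fibre surface, stood at 0.12, 0.17 and 0.15 FPKM in Tet1-KO libraries, against 16.6, 18.2 and 17.4 FPKM in WT libraries, a difference of −4.0 ± 0.10 (adjusted p = 1.26e-07). Both were far below every WT library in every Tet1-KO library, and the naming rule required groups without overlap. Efemp1, a fibulin, stood at 0.07, 0.03 and 0.2 FPKM in Tet1-KO libraries, against 3.46, 3.67 and 3.61 FPKM in WT libraries, a difference of −2.06 ± 0.11 (adjusted p = 5.89e-06). In the other direction, Mfap5, a microfibril glycoprotein, stood at 104, 98.4 and 84 FPKM in Tet1-KO libraries, against 33.5, 28.2 and 25.9 FPKM in WT libraries, a difference of 1.68 ± 0.12 (adjusted p = 3.74e-05), and Ltbp2, a binder of fibrillin, rose by 0.78 ± 0.17 (adjusted p = 0.00745). Lox, the lysyl oxidase itself, stood at 529.7, 557 and 669 FPKM in Tet1-KO libraries, against 486, 505 and 477 FPKM in WT libraries and did not pass (adjusted p = 0.12), though it did with the length trend removed (0.56, adjusted p = 6.49e-04). The 11 falls became 7, 5 and 5 without WT replicate 1, 2 or 3. Each time 15 of the 19 genes were still tested, since a gene near 0 in Tet1-KO then no longer reaches 1 FPKM in 3 libraries. Without WT replicate 2 or 3, calls were also lost among genes that were still tested.

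Collagens and basement membrane genes followed a similar count. Of 26 collagens tested, 4 rose (15.4%) and 15 fell (57.7%), with a median of −0.64 (−0.27 with the length trend removed, when 6 rose and 11 fell). Collagen transcripts are long, at a median of 5456 bases against 2631 over all genes tested, so that the scale matters here. Col15a1, a collagen of the basement membrane zone, stood at 0.56, 0.51 and 0.57 FPKM in Tet1-KO libraries, against 4.08, 5.84 and 5.31 FPKM in WT libraries, a difference of −1.96 ± 0.13 (adjusted p = 2.03e-05). Col6a3, of the pericellular microfibrils, stood at 28, 27 and 41 FPKM in Tet1-KO libraries, against 87.9, 126 and 126 FPKM in WT libraries, a difference of −1.80 ± 0.19 (adjusted p = 2.48e-04). Col1a1, of the main fibrillar collagen, stood at 655, 471 and 955 FPKM in Tet1-KO libraries, against 649, 889 and 846 FPKM in WT libraries and did not pass (−0.24 ± 0.25, adjusted p = 0.43), with overlapping groups, though it was lower without Tet1-KO replicate 3 (−0.50, adjusted p = 0.0276). Col10a1, a cartilage collagen, rose and stood at 1.41, 1.48 and 2 FPKM in Tet1-KO libraries, against 0.11, 0.25 and 0.12 FPKM in WT libraries, a difference of 1.18 ± 0.12 (adjusted p = 2.33e-04). Of 11 basement membrane genes tested, 2 rose (18.2%) and 8 fell (72.7%), with a median of −0.83 (−0.43 with the length trend removed, when 1 rose and 5 fell). Besides Nid1, the laminin chain Lamb1 stood at 4.81, 3.79 and 4.88 FPKM in Tet1-KO libraries, against 35, 42.5 and 39.9 FPKM in WT libraries, a difference of −2.87 ± 0.12 (adjusted p = 1.91e-06), and Nid2 at 69.3, 51.4 and 103 FPKM in Tet1-KO libraries, against 203, 261 and 253 FPKM in WT libraries, a difference of −1.72 ± 0.23 (adjusted p = 7.25e-04). Every Tet1-KO library lay below every WT library for both, and Tet1-KO replicate 3 was nearest to WT for Nid2. The collagen rises became 1 and 2 without Tet1-KO replicate 1 or 2, and the basement membrane falls 5 without Tet1-KO replicate 1 and 4 without WT replicate 2 or 3. Matrix proteases and their inhibitors split, and of 22 tested 7 rose (31.8%) and 10 fell (45.5%), against 9 and 9 with the length trend removed and 10 and 8 with median-ratio scaling. The gelatinase gene Mmp9 (−1.46 ± 0.11) and the proteoglycan-cleaving Adamts9 (−1.41 ± 0.11) were lower (adjusted p of 3.92e-05 and 3.93e-05), and the 10 falls became 6, 6 and 5 without WT replicate 1, 2 or 3.

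A small proteoglycan and several secreted regulators of progenitor cells fell as well. Lum, which encodes the collagen-binding proteoglycan lumican, stood at 0.88, 1.59 and 0.7 FPKM in Tet1-KO libraries, against 25.8, 23.8 and 25.8 FPKM in WT libraries, a difference of −3.69 ± 0.16 (adjusted p = 1.96e-06). Sfrp2, a secreted modulator of WNT signals, stood at 0.15, 0.03 and 0.07 FPKM in Tet1-KO libraries, against 19.3, 19.4 and 18.4 FPKM in WT libraries, a difference of −4.21 ± 0.10 (adjusted p = 1.26e-07). Gas6, the ligand of the TAM receptors, stood at 0.88, 0.51 and 0.36 FPKM in Tet1-KO libraries, against 12.4, 14.9 and 13 FPKM in WT libraries, a difference of −3.20 ± 0.14 (adjusted p = 2.46e-06). These 3 genes were at most 1.59 FPKM in any Tet1-KO library and at least 12.4 FPKM in any WT library. Ptn, the heparin-binding growth factor pleiotrophin and the most abundant of the falling genes named, stood at 742, 836 and 752 FPKM in Tet1-KO libraries, against 7781, 7271 and 7216 FPKM in WT libraries, a difference of −3.26 ± 0.14 (adjusted p = 2.21e-06). Fgf10, which acts on epithelium and on preadipocytes, stood at 0.07, 0.18 and 0.04 FPKM in Tet1-KO libraries, against 9.98, 10.9 and 10.3 FPKM in WT libraries, a difference of −3.38 ± 0.10 (adjusted p = 4.00e-07). Hgf, the hepatocyte growth factor, stood at 0.2, 0.07 and 0.1 FPKM in Tet1-KO libraries, against 3.35, 3.35 and 3.71 FPKM in WT libraries, a difference of −1.99 ± 0.10 (adjusted p = 6.29e-06). Of 26 growth factors and their binding proteins tested, 8 rose (30.8%) and 11 fell (42.3%), against 11 and 10 with the length trend removed, and 1 of the rises and 8 of the falls reached 1 log2 unit. The falls became 7, 6 and 6 without WT replicate 1, 2 or 3. Igfbp7, an IGF-binding protein, was the one large rise, at 722, 571 and 706 FPKM in Tet1-KO libraries, against 169.9, 182 and 181 FPKM in WT libraries, a difference of 1.89 ± 0.12 (adjusted p = 1.76e-05). Other large falls were of Angptl1 (−3.60 ± 0.11), an angiopoietin-like secreted protein, Fam107a (−4.20 ± 0.11), an actin-binding stress gene, Efhd1 (−3.60 ± 0.11), a mitochondrial calcium sensor, and Cnp (−3.50 ± 0.10), best known as a myelin enzyme (adjusted p of 4.57e-07, 2.21e-07, 3.90e-07 and 2.38e-07).

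**Figure D3:**
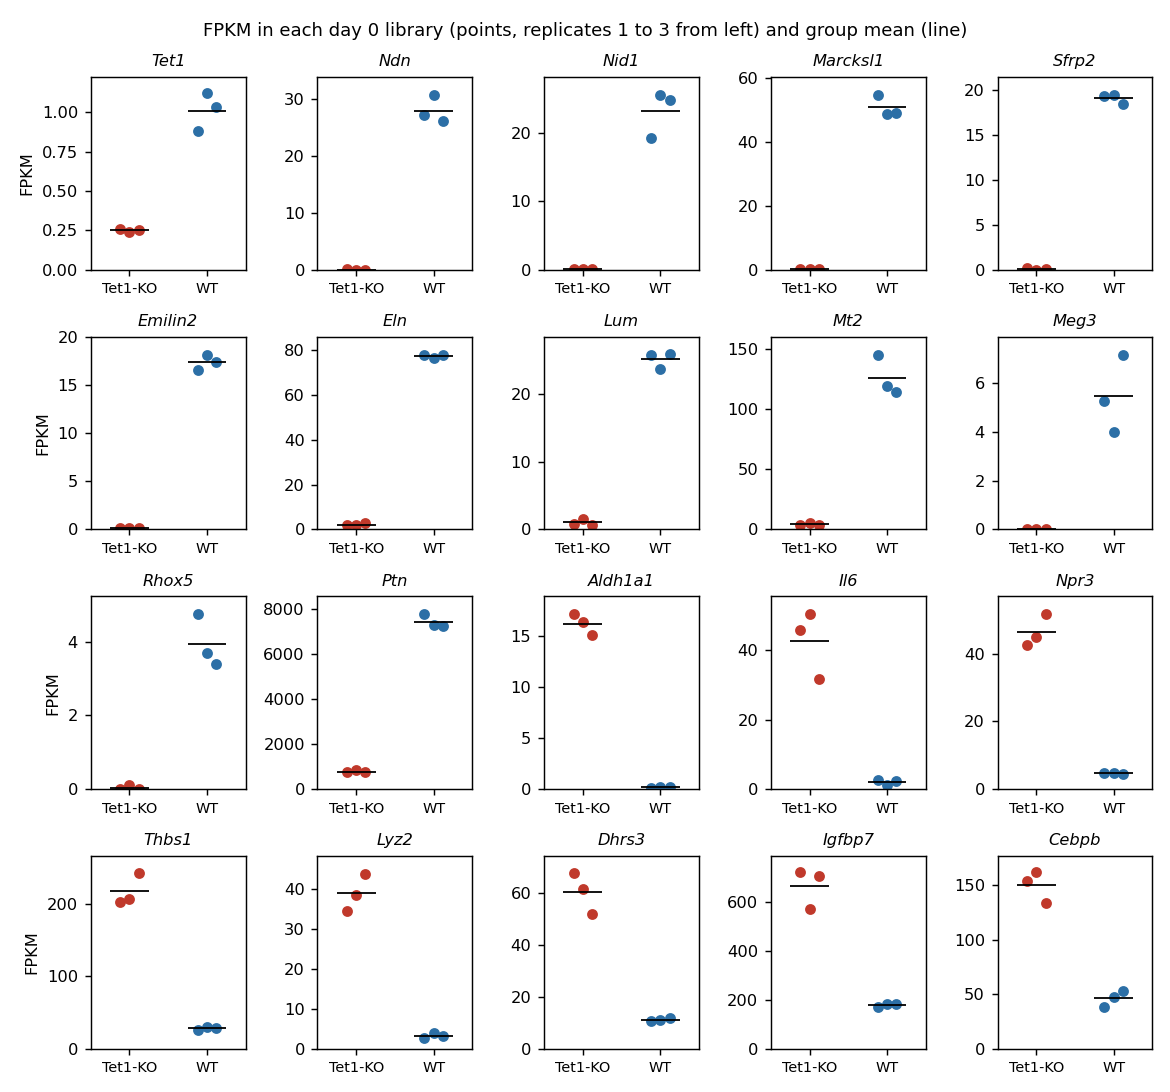
FPKM in each of the 3 Tet1-KO and 3 WT day 0 libraries (points, replicates 1 to 3 from left, with the group mean as a line) for 20 genes, each on its own axis that starts at 0. From Ndn through Ptn every Tet1-KO point lies below every WT point, as for Ptn at 742, 836 and 752 FPKM against 7781, 7271 and 7216 FPKM, and from Aldh1a1 through Cebpb every Tet1-KO point lies above.

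The preadipocyte and progenitor list fell in most of its members. Of 19 tested, 4 rose (21.1%) and 13 fell (68.4%), 7 of the falls by at least 1 log2 unit, with a median of −0.54 (−0.39 with the length trend removed). Pdgfra, the PDGF receptor that marks adipocyte progenitors, stood at 15.3, 14.7 and 22.2 FPKM in Tet1-KO libraries, against 35, 39.1 and 38.7 FPKM in WT libraries, a difference of −1.09 ± 0.15 (adjusted p = 9.37e-04). Ly6a, the stem cell antigen Sca-1, rose and stood at 686, 728 and 520.1 FPKM in Tet1-KO libraries, against 295, 256 and 245 FPKM in WT libraries, a difference of 1.27 ± 0.15 (adjusted p = 4.30e-04). Both genes were separated between genotypes in every library, in opposite directions. Of 12 mesenchymal markers tested, 3 rose (25%) and 3 fell (25%), after quantile normalisation 1 rose and 4 fell, and without Tet1-KO replicate 3 the falls numbered 5.

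Imprinted genes were lower more often than higher among large changes, with none higher by at least 1 log2 unit and 6 lower. Among the 6 were Ndn, Meg3 and Rian. These passed the filter through their WT values alone, so that for them only a fall could be called. Imprinting keeps 1 parental copy silent through methylated control regions. Of 36 listed genes 19 were tested, and 4 rose (21.1%) and 8 fell (42.1%), against 20.5% and 30.0% of all genes tested. The median was −0.35 (−0.08 with the length trend removed, when 3 rose and 7 fell). Besides Ndn, the maternally expressed RNA Meg3 (chromosome 12, 109541001 to 109571726, plus strand) was listed at 0 in all 3 Tet1-KO libraries, against 5.27, 3.99 and 7.15 FPKM in WT libraries (adjusted p = 1.76e-05). Rian, a noncoding RNA of the same chromosome 12 cluster (chromosome 12, 109603940 to 109661716, plus strand), stood at 0, 0.03 and 0.02 FPKM in Tet1-KO libraries, against 5.11, 4.28 and 4.78 FPKM in WT libraries, a difference of −2.49 ± 0.10 (adjusted p = 1.91e-06). The remaining falls were Igf2r (−1.48 ± 0.18), H19 (−1.48 ± 0.13), Airn (−1.11 ± 0.09), Grb10 (−0.97 ± 0.09) and Impact (−0.35 ± 0.09), all named after their values were seen (adjusted p of 4.94e-04, 9.87e-05, 5.19e-05, 1.09e-04 and 0.0124). Impact did not pass with the length trend removed (adjusted p = 0.508) or without WT replicate 2 or 3 (0.0562 and 0.0662). Igf2r and Airn overlap on opposite strands, and counting by strand is not given in the sources used here. Sgce, a sarcoglycan gene, and its neighbour Peg10, a retrotransposon-derived gene, rose by 0.96 ± 0.10 and 0.90 ± 0.15 (adjusted p of 1.71e-04 and 0.00195). Gnas, the stimulatory G protein gene, stood at 1313, 841 and 1044 FPKM in Tet1-KO libraries, against 953, 939 and 939 FPKM in WT libraries and did not pass (adjusted p = 0.472). The falls became 3 without WT replicate 2 or 3 and 4 without WT replicate 1, where genes near 0 in Tet1-KO are no longer tested.

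Among 25 germline genes, which DNA methylation keeps silent in many somatic cells, 24 did not reach the filter. The exception, Rhox5, a homeobox gene of the X chromosome (chromosome X, 37804842 to 37808876, plus strand), stood at 0, 0.1 and 0 FPKM in Tet1-KO libraries, against 4.74, 3.7 and 3.39 FPKM in WT libraries, a difference of −2.25 ± 0.13 (adjusted p = 9.73e-06). It passed the filter through its WT values alone, so that only a fall could be called. With no filter 17 germline genes were tested, and 1 rose and 2 fell. Rhox5 was present in every WT library and at or near 0 in every Tet1-KO library. Slit3, a secreted guidance protein gene, was likewise at 0, 0.01 and 0 FPKM in Tet1-KO libraries, against 5.18, 6.48 and 7.57 FPKM in WT libraries, a difference of −2.87 ± 0.13 (adjusted p = 3.23e-06). In the other direction Prl2c3, a gene of the prolactin family that has near-identical copies, was listed at 0 in all WT libraries and stood at 7.64, 7.81 and 6.99 FPKM in Tet1-KO libraries (adjusted p = 4.67e-07). Its relative Prl2c2 stood at 32.5, 36.6 and 23.5 FPKM in Tet1-KO libraries, against 4.46, 2.78 and 2.91 FPKM in WT libraries, a difference of 2.86 ± 0.19 (adjusted p = 2.28e-05), and how reads were divided among the copies is not known.

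Among genes of the methylation machinery other than Tet1 more fell than rose, though 3 of the rises and 1 of the falls reached 1 log2 unit. Of 19 tested, 5 rose (26.3%) and 11 fell (57.9%), with a median of −0.34 (−0.23 with the length trend removed, when 5 rose and 6 fell). Tet3 stood at 2.67, 2.43 and 2.52 FPKM in Tet1-KO libraries, against 5.38, 6.16 and 6.41 FPKM in WT libraries, a difference of −0.98 ± 0.10 (adjusted p = 2.30e-04). Dnmt3a, a de novo methyltransferase, stood at 3.44, 3.1 and 4.36 FPKM in Tet1-KO libraries, against 8.93, 9.99 and 9.88 FPKM in WT libraries, a difference of −1.20 ± 0.12 (adjusted p = 2.04e-04). Uhrf1 stood at 17.2, 16.6 and 19.6 FPKM in Tet1-KO libraries, against 28.8, 31.4 and 32.5 FPKM in WT libraries, a difference of −0.77 ± 0.10 (adjusted p = 6.44e-04), and Dnmt1 at 12.4, 9.57 and 16.9 FPKM in Tet1-KO libraries, against 20.4, 25.5 and 26 FPKM in WT libraries, a difference of −0.86 ± 0.19 (adjusted p = 0.0069). The genotypes were separate for all 4, and Tet1-KO replicate 3 lay nearest to WT for Dnmt1. Tet2, at 1.09, 0.72 and 0.83 FPKM in Tet1-KO libraries, against 1.72, 1.94 and 2.46 FPKM in WT libraries, gave −0.69 ± 0.13 (adjusted p = 0.00394), Dnmt3b −0.51 ± 0.11 (0.00706) and Tdg −0.50 ± 0.18 (0.0481). With the length trend removed these 3 did not pass (adjusted p of 0.0855, 0.0725 and 0.127), and Tdg did not pass without any one library other than Tet1-KO replicate 3 (0.0845 to 0.165). The 11 falls became 7 without Tet1-KO replicate 1 or WT replicate 1, and 6 without WT replicate 2 or 3. The rises included Idh1, whose enzyme makes the 2-oxoglutarate that TET proteins use, at 122, 137 and 127 FPKM in Tet1-KO libraries, against 60.8, 55.7 and 51.7 FPKM in WT libraries, a difference of 1.19 ± 0.10 (adjusted p = 6.52e-05), and Gadd45g, a stress-induced gene, at 272, 283 and 155 FPKM in Tet1-KO libraries, against 81.1, 67.1 and 68.9 FPKM in WT libraries, a difference of 1.65 ± 0.22 (adjusted p = 7.23e-04).

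Among the rises, retinoid enzymes gave some of the largest while 3 retinoid receptors were lower. Of 11 retinoid genes tested, 4 rose (36.4%) and 4 fell (36.4%), and the rises became 2 without any one Tet1-KO library, since genes near 0 in WT are then not tested. With Aldh1a1 and Aldh1a7, Dhrs3, which reduces retinaldehyde to retinol, stood at 67.8, 61.7 and 52 FPKM in Tet1-KO libraries, against 10.6, 11.1 and 11.8 FPKM in WT libraries, a difference of 2.33 ± 0.11 (adjusted p = 4.25e-06). The receptor genes Rara (−0.63 ± 0.13), Rxrb (−0.58 ± 0.13) and Rarg (−0.48 ± 0.11) fell by less than 1 log2 unit (adjusted p of 0.0051, 0.00813 and 0.00796), and Rxra, at 29.9, 29.6 and 36.3 FPKM in Tet1-KO libraries, against 33.6, 38.8 and 40.6 FPKM in WT libraries, did not pass (adjusted p = 0.123) except without Tet1-KO replicate 3 (−0.33, adjusted p = 0.0161).

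Cytokine and chemokine genes were mostly higher, and of 15 tested 10 rose (66.7%) and 4 fell (26.7%), with a median of 0.72 (0.37 with the length trend removed, when 8 were higher and 3 lower). Cxcl5, a neutrophil attractant, stood at 479.5, 541 and 362 FPKM in Tet1-KO libraries, against 108, 96.3 and 94.8 FPKM in WT libraries, a difference of 2.18 ± 0.15 (adjusted p = 2.72e-05). Il1rn, the interleukin-1 receptor antagonist, stood at 891, 845 and 868 FPKM in Tet1-KO libraries, against 268, 269 and 259 FPKM in WT libraries, a difference of 1.70 ± 0.10 (adjusted p = 1.05e-05). Tet1-KO replicate 3 was the lowest of its group for Il6 and Cxcl5 and still above every WT library. Ccl5, a T cell attractant, fell and stood at 1.16, 1.01 and 1.53 FPKM in Tet1-KO libraries, against 6.69, 5.61 and 5.83 FPKM in WT libraries, a difference of −1.66 ± 0.12 (adjusted p = 3.74e-05). The most abundant chemokine, Cxcl12, stood at 2239.5, 2111 and 2436 FPKM in Tet1-KO libraries, against 2607, 2732 and 2749.6 FPKM in WT libraries and did not pass (adjusted p = 0.161) except without Tet1-KO replicate 3 (−0.31, adjusted p = 0.0343). The NF-kB feedback and acute phase list leaned the other way, and of 15 tested 4 rose (26.7%) and 9 fell (60%), against 20.5% and 30.0% of all genes tested. Its median was −0.42 (−0.11 with the length trend removed, when 5 rose and 7 fell). Falls of this list numbered 6 without WT replicate 2 or 3. Its rises included Ptx3 (1.81 ± 0.14), Saa3 (1.99 ± 0.17) and Lcn2 (1.64 ± 0.11), all secreted acute phase proteins, and its falls C3 (−1.52 ± 0.18), the central complement gene, Tnfaip6 (−1.33 ± 0.11), a hyaluronan-binding protein, and Vcam1 (−1.15 ± 0.10), an adhesion receptor (adjusted p of 4.36e-05, 6.41e-05, 2.61e-05, 3.94e-04, 7.43e-05 and 9.90e-05). Without Tet1-KO replicate 1 the cytokine rises numbered 6, and without any one WT library the cytokine falls numbered 2.

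More interferon-stimulated genes fell than rose. Of 22 interferon-stimulated genes tested 3 rose (13.6%) and 13 fell (59.1%), with a median of −0.46 (−0.32 with the length trend removed). Bst2, the virus tether tetherin, stood at 14.6, 13.6 and 9.47 FPKM in Tet1-KO libraries, against 63.4, 60.7 and 58.2 FPKM in WT libraries, a difference of −2.21 ± 0.15 (adjusted p = 2.24e-05). The 13 falls became 8 without WT replicate 3. Iigp1, a GTPase against intracellular pathogens, was lower (−1.35 ± 0.12) and Ifit3 higher (0.47 ± 0.09) (adjusted p of 7.79e-05 and 0.00397). Of 13 class I genes tested 2 rose (15.4%) and 6 fell (46.2%). H2-T23 stood at 7.07, 7.2 and 7.24 FPKM in Tet1-KO libraries, against 24.2, 20.1 and 22.6 FPKM in WT libraries, a difference of −1.51 ± 0.10 (adjusted p = 1.94e-05), and H2-K1 at 1.44, 1.89 and 1.32 FPKM in Tet1-KO libraries, against 5.8, 4.28 and 4.84 FPKM in WT libraries, a difference of −1.23 ± 0.14 (adjusted p = 2.86e-04), both uncertain since class I genes are close copies of one another. B2m, the shared light chain, was higher by 0.39 ± 0.13 (adjusted p = 0.0334), did not pass without any one library other than Tet1-KO replicate 3 (0.0577 to 0.155) and lay the other way without passing when the length trend was removed (−0.05, adjusted p = 0.657).

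Matricellular and contractile genes gave some of the largest changes in both directions. The CCN family of matrix-bound signalling proteins split, with Ctgf at 206, 214 and 283 FPKM in Tet1-KO libraries, against 23, 20.9 and 21.6 FPKM in WT libraries, a difference of 3.35 ± 0.13 (adjusted p = 1.24e-06), and its relative Nov at 11.1, 11 and 11.2 FPKM in Tet1-KO libraries, against 342, 337 and 331 FPKM in WT libraries, a difference of −4.80 ± 0.08 (adjusted p = 2.82e-08). The genotypes lay far apart for both, and they moved in opposite directions in every Tet1-KO library. Wisp2, another member, rose by 1.55 ± 0.11 (adjusted p = 2.55e-05), and Cyr61 stood at 619, 530.5 and 586 FPKM in Tet1-KO libraries, against 506, 546 and 545 FPKM in WT libraries and did not pass (adjusted p = 0.398). Of 21 CCN and YAP target genes tested 5 rose (23.8%) and 5 fell (23.8%), against 20.5% and 30.0% of all genes tested. However, 9 rose and 4 fell with the length trend removed and 8 and 5 after quantile normalisation. The falls became 3 without Tet1-KO replicate 1, WT replicate 2 or WT replicate 3 and 8 without Tet1-KO replicate 3. Thbs1, which encodes the matricellular protein thrombospondin-1, stood at 203, 206 and 242 FPKM in Tet1-KO libraries, against 26.2, 29.9 and 28.1 FPKM in WT libraries, a difference of 2.90 ± 0.10 (adjusted p = 7.75e-07). Slpi, a leukocyte protease inhibitor, stood at 272, 313 and 207 FPKM in Tet1-KO libraries, against 43.7, 36.6 and 34.6 FPKM in WT libraries, a difference of 2.74 ± 0.16 (adjusted p = 1.08e-05). All Tet1-KO libraries lay above all WT libraries for both, which the naming rule required of Thbs1. Npr3, the natriuretic peptide clearance receptor, stood at 42.6, 45 and 51.9 FPKM in Tet1-KO libraries, against 4.8, 4.67 and 4.43 FPKM in WT libraries, a difference of 3.07 ± 0.10 (adjusted p = 5.31e-07). Among 19 smooth muscle contractile genes 8 rose (42.1%) and 4 fell (21.1%), but after quantile normalisation 5 rose and 7 fell. Acta2, the smooth muscle actin, stood at 1632, 1460.4 and 1547 FPKM in Tet1-KO libraries, against 570.0, 547 and 548 FPKM in WT libraries, a difference of 1.48 ± 0.12 (adjusted p = 4.72e-05), and Tagln at 12.9, 15.3 and 11.4 FPKM in Tet1-KO libraries, against 1.32, 1.48 and 1.96 FPKM in WT libraries, a difference of 2.45 ± 0.14 (adjusted p = 9.73e-06), whereas Myl9, the regulatory myosin light chain, fell and stood at 1.32, 1.3 and 1.53 FPKM in Tet1-KO libraries, against 34.3, 27.6 and 27 FPKM in WT libraries, a difference of −3.68 ± 0.12 (adjusted p = 4.67e-07).

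Other genes among the 15 largest rises have roles outside these lists or mark other cell types. Lyz2, a lysozyme gene typical of myeloid cells, stood at 34.5, 38.5 and 43.8 FPKM in Tet1-KO libraries, against 2.62, 3.86 and 3.13 FPKM in WT libraries, a difference of 3.25 ± 0.14 (adjusted p = 1.91e-06), while the other leukocyte genes tested did not pass, with Cd14 at 9.49, 8.39 and 8.74 FPKM in Tet1-KO libraries, against 10.1, 8.34 and 9.05 FPKM in WT libraries (adjusted p = 0.756) and Cd68 at 1.26, 2.2 and 1.65 FPKM in Tet1-KO libraries, against 2.25, 1.17 and 1.2 FPKM in WT libraries (adjusted p = 0.669). Crygs, a lens crystallin, stood at 30, 30.5 and 19 FPKM in Tet1-KO libraries, against 0.44, 1.83 and 0.26 FPKM in WT libraries, a difference of 3.96 ± 0.30 (adjusted p = 4.36e-05), and Sbsn, a secreted epidermal protein, at 18.9, 15.2 and 14 FPKM in Tet1-KO libraries, against 0.96, 1.24 and 0.85 FPKM in WT libraries, a difference of 3.07 ± 0.13 (adjusted p = 2.31e-06). Hist1h4h, one of several genes for an identical histone, stood at 127, 143 and 81.3 FPKM in Tet1-KO libraries, against 16.5, 19.8 and 10.5 FPKM in WT libraries, a difference of 2.84 ± 0.26 (adjusted p = 1.05e-04). Tet1-KO replicate 3 was the lowest of its group for Crygs, Sbsn and Hist1h4h. Among markers of other lineages, the endothelial receptor Tek was lower (−0.78 ± 0.11, adjusted p = 8.43e-04) and the skeletal muscle troponin Tnnt3 did not pass (adjusted p = 0.162) except with the length trend removed (−0.76, adjusted p = 0.0143), each the only member tested.

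Of the regulators of adipogenesis, Cebpb was higher in Tet1-KO cells and neither Pparg nor Cebpa passed the test. Cebpb stood at 154, 162 and 134 FPKM in Tet1-KO libraries, against 38.6, 47.5 and 52.7 FPKM in WT libraries, a difference of 1.68 ± 0.13 (adjusted p = 4.92e-05). Pparg stood at 33.8, 31.5 and 31.7 FPKM in Tet1-KO libraries, against 36.4, 36 and 31.2 FPKM in WT libraries, a difference of −0.09 ± 0.09 (adjusted p = 0.449), and Cebpa at 21, 21.2 and 26.9 FPKM in Tet1-KO libraries, against 19.9, 22.4 and 22.5 FPKM in WT libraries, a difference of 0.08 ± 0.12 (adjusted p = 0.582), and neither passed. The groups overlapped for both. Cebpd, at 223, 238 and 164 FPKM in Tet1-KO libraries, against 165, 158 and 152 FPKM in WT libraries, did not pass (adjusted p = 0.0588) and did with the length trend removed (0.0219) or without Tet1-KO replicate 3 (5.81e-04). Zfp423, which commits cells to the preadipocyte lineage, stood at 1.81, 1.45 and 2.88 FPKM in Tet1-KO libraries, against 6.23, 7.04 and 7.71 FPKM in WT libraries, a difference of −1.41 ± 0.17 (adjusted p = 4.68e-04). Ebf1, a B cell and adipocyte factor, stood at 16.4, 13.9 and 17.6 FPKM in Tet1-KO libraries, against 40.9, 46.2 and 45.5 FPKM in WT libraries, a difference of −1.42 ± 0.11 (adjusted p = 4.41e-05). Of 24 adipogenic transcription factors tested 2 rose (8.33%) and 14 fell (58.3%), with a median of −0.42 (−0.14 with the length trend removed, when 5 rose and 10 fell). The 14 falls became 9 without WT replicate 3.

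Adipocyte markers were higher more often than lower, and of 21 tested 10 rose (47.6%) and 4 fell (19%), with a median of 0.52 (0.47 with the length trend removed, when 7 rose and 2 fell). Fabp4, the fatty acid-binding protein of fat cells, stood at 185, 354 and 240.3 FPKM in Tet1-KO libraries, against 59.8, 140.2 and 31.9 FPKM in WT libraries, a difference of 1.94 ± 0.47 (adjusted p = 0.0107). Fabp5, its close relative, stood at 97.4, 80.8 and 90.3 FPKM in Tet1-KO libraries, against 15.1, 28.5 and 12.9 FPKM in WT libraries, a difference of 2.27 ± 0.25 (adjusted p = 2.84e-04). Adipoq, which encodes adiponectin, stood at 13.4, 21.7 and 19.6 FPKM in Tet1-KO libraries, against 5.95, 14.1 and 3.26 FPKM in WT libraries, a difference of 1.30 ± 0.40 (adjusted p = 0.0272). WT replicate 2 was the highest of its group for all 3 and came above the lowest Tet1-KO library for Adipoq, whose groups overlap. Adipoq did not pass with the length trend removed (adjusted p = 0.0623) or without Tet1-KO replicate 1 or 2 or WT replicate 1 or 3 (0.052 to 0.0815). Plin1, the lipid droplet coat protein, stood at 3.56, 1.88 and 5 FPKM in Tet1-KO libraries, against 0.44, 1.92 and 0.55 FPKM in WT libraries, a difference of 1.20 ± 0.32 (adjusted p = 0.0165), again with overlapping groups and the highest WT value in replicate 2, and did not pass without Tet1-KO replicate 1, WT replicate 1 or WT replicate 3 (0.0532 to 0.0671). Lpl, at 5.5, 9.23 and 7.76 FPKM in Tet1-KO libraries, against 3.47, 10.1 and 2.78 FPKM in WT libraries, did not pass (adjusted p = 0.243) except without WT replicate 2 (1.02, adjusted p = 0.0103). Cd36 lay below the filter with 0.33, 0.43 and 0.36 FPKM in Tet1-KO libraries and 0.18, 0.48 and 0.14 FPKM in WT libraries, and Dlk1, the preadipocyte factor, was at most 0.02 FPKM in Tet1-KO libraries and 0.24 in WT libraries. The lipogenic enzymes Fasn (−0.96 ± 0.15) and Acaca (−0.74 ± 0.14) were lower (adjusted p of 0.00184 and 0.00368). The 10 rises became 5 without WT replicate 1 or 3, 10 without WT replicate 2 and 6 without Tet1-KO replicate 2, and the 4 falls became 2 without WT replicate 2 or 3.

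**Figure D4:**
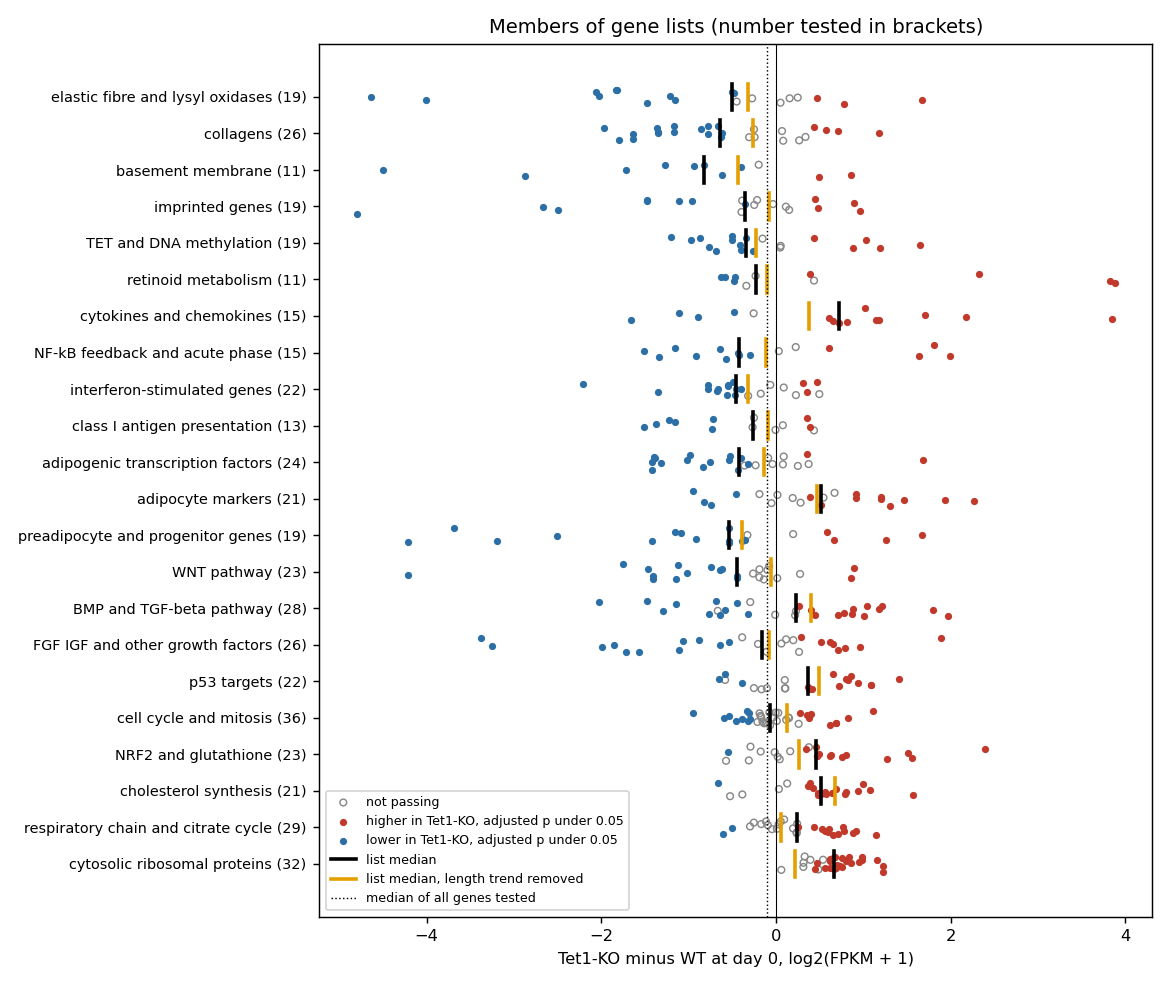
Difference of each tested member of 22 gene lists, Tet1-KO minus WT in log2(FPKM + 1), with called members filled, the list median as a black bar, the median with the length trend removed as an orange bar and the median of all genes tested, −0.11, as a dotted line. Basement membrane genes have the lowest median shown, −0.83, and cytokines and chemokines the highest, 0.72, and in most lists the bars lie apart.

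Signalling pathways that steer mesenchymal cells differed in direction. WNT proteins hold preadipocytes undifferentiated, and of 23 WNT pathway genes tested 2 rose (8.7%) and 13 fell (56.5%), with a median of −0.45 (−0.06 with the length trend removed, when 3 rose and 9 fell). The 13 falls became 8 without WT replicate 2 or 3. Among ligands, Wnt5a stood at 0.25, 0.26 and 0.24 FPKM in Tet1-KO libraries, against 3.11, 3.23 and 3.31 FPKM in WT libraries, a difference of −1.75 ± 0.10 (adjusted p = 8.12e-06), and Wnt6 at 2.34, 1.35 and 2.24 FPKM in Tet1-KO libraries, against 6.97, 7.49 and 6.96 FPKM in WT libraries, a difference of −1.47 ± 0.15 (adjusted p = 1.75e-04). The WNT enhancer Rspo3 rose by 0.89 ± 0.09 (adjusted p = 1.85e-04), while its relative Rspo2 stood at 128, 156 and 184 FPKM in Tet1-KO libraries, against 149, 156 and 153 FPKM in WT libraries and did not pass (adjusted p = 0.928). Of 28 BMP and TGF-beta genes tested, 13 rose (46.4%) and 10 fell (35.7%), with a median of 0.22, and the falls became 6 without WT replicate 2. Inhba, which encodes an activin subunit, stood at 8.44, 8.39 and 9.5 FPKM in Tet1-KO libraries, against 1.83, 1.89 and 1.72 FPKM in WT libraries, a difference of 1.80 ± 0.10 (adjusted p = 8.18e-06). The BMP targets Id3 and Id4 rose by 1.22 ± 0.14 and 1.97 ± 0.17 (adjusted p of 3.61e-04 and 8.70e-05). The antagonist Fstl1, at 489, 478 and 614 FPKM in Tet1-KO libraries, against 1358, 1515 and 1514 FPKM in WT libraries, gave a difference of −1.48 ± 0.14 (adjusted p = 1.30e-04). Id3, Id4 and Inhba were higher and Fstl1 lower in all 3 Tet1-KO libraries than in any WT library, and pathway activity was not tested.

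Genes of other mesenchymal fates changed in both directions. Of 18 cartilage, tendon and bone genes tested, 5 rose (27.8%) and 10 fell (55.6%), against 6 and 7 with the length trend removed, and the rises became 3 without Tet1-KO replicate 1 or WT replicate 3. Scx, the tendon transcription factor scleraxis, rose and stood at 16.2, 16.7 and 12.3 FPKM in Tet1-KO libraries, against 1.78, 2.17 and 2 FPKM in WT libraries, a difference of 2.42 ± 0.13 (adjusted p = 8.08e-06), whereas Tnmd, the tendon membrane protein tenomodulin, fell and stood at 36.4, 38.2 and 32.1 FPKM in Tet1-KO libraries, against 110.0, 92.3 and 93.5 FPKM in WT libraries, a difference of −1.44 ± 0.11 (adjusted p = 4.02e-05). Spp1, the bone matrix protein osteopontin, stood at 45, 57.6 and 59.7 FPKM in Tet1-KO libraries, against 236, 219 and 200.1 FPKM in WT libraries, a difference of −2.0 ± 0.13 (adjusted p = 1.77e-05). Bglap, which encodes osteocalcin and has near-identical copies, rose by 2.10 ± 0.34 (adjusted p = 0.00202). Of 9 HOX genes tested, 1 rose (11.1%) and 3 fell (33.3%), against 20.5% and 30.0% of all genes tested. Hoxc9 stood at 16.1, 13.7 and 11.7 FPKM in Tet1-KO libraries, against 1.95, 2.09 and 2.47 FPKM in WT libraries, a difference of 2.22 ± 0.13 (adjusted p = 1.09e-05), while Hoxa2, Hoxc13 and Hoxa7 fell by less than 1 log2 unit (−0.79 ± 0.10, −0.79 ± 0.11 and −0.71 ± 0.12, adjusted p of 5.25e-04, 0.00105 and 0.00273). No clustered protocadherin rose and 7 of 11 tested fell (63.6%, against 30.0% of all genes tested), none by 1 log2 unit. These genes share exons, so their values are uncertain. Their transcripts are long, with a median of 4437.5 bases against 2631 over all genes tested. In the length group that holds this median, 47.1% of all genes were lower. With the length trend removed, 4 of the protocadherins fell and 1 rose. Of 5 neural markers tested 1 rose (20%) and 3 fell (60%), and the progenitor filament gene Nes stood at 0.08, 0.04 and 0.04 FPKM in Tet1-KO libraries, against 3.62, 4.08 and 4.01 FPKM in WT libraries, a difference of −2.22 ± 0.10 (adjusted p = 2.87e-06).

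Growth control lists moved in different directions. Of 22 p53 targets tested, 12 rose (54.5%) and 3 fell (13.6%), with a median of 0.37 (0.49 with the length trend removed, when 14 rose and 2 fell). Cdkn1a, the cyclin-dependent kinase inhibitor p21, stood at 373, 373 and 374 FPKM in Tet1-KO libraries, against 213, 207 and 209.7 FPKM in WT libraries, a difference of 0.83 ± 0.09 (adjusted p = 2.75e-04). Fas, the death receptor, stood at 88.2, 97.6 and 80.7 FPKM in Tet1-KO libraries, against 33.5, 31.7 and 32.8 FPKM in WT libraries, a difference of 1.41 ± 0.10 (adjusted p = 2.41e-05). In both, the 6 libraries fell into separate groups with little spread. Ccng1, cyclin G1, and Eda2r, a TNF receptor family member, rose by 1.09 ± 0.09 and 1.09 ± 0.13 (adjusted p of 6.41e-05 and 4.94e-04). Of 36 cell cycle and mitosis genes tested, 9 rose (25%) and 9 fell (25%) against 20.5% and 30.0% of all genes tested. With the length trend removed 12 rose and 4 fell, and with median-ratio scaling 10 and 5. The 9 rises became 4 without Tet1-KO replicate 1, WT replicate 2 or WT replicate 3, and the 9 falls 4 without Tet1-KO replicate 1 and 3, 2 and 2 without WT replicate 1, 2 or 3. The mitotic genes Aurka (0.82 ± 0.09) and Cdc20 (0.69 ± 0.10) were higher and Mcm2 (−0.60 ± 0.12), of the replicative helicase, and the kinase gene Cdk2 (−0.54 ± 0.10) lower (adjusted p of 3.52e-04, 9.89e-04, 0.00481 and 0.00287), while Pcna, the replication clamp, stood at 243, 248 and 215 FPKM in Tet1-KO libraries, against 264, 231 and 229 FPKM in WT libraries and did not pass (adjusted p = 0.797). Of 10 cell cycle inhibitors and D cyclins tested, 2 rose (20%) and 1 fell (10%). The inhibitor Cdkn1b, p27, stood at 20.6, 21.7 and 23.5 FPKM in Tet1-KO libraries, against 39.3, 41.3 and 41.1 FPKM in WT libraries, a difference of −0.86 ± 0.09 (adjusted p = 2.12e-04), opposite to Cdkn1a. Of 22 AP-1 and immediate early genes tested, 3 rose (13.6%) and 11 fell (50%). Egr3 and Nr4a1, factors induced within minutes of a stimulus, fell (−2.04 ± 0.12 and −1.76 ± 0.15, adjusted p of 1.05e-05 and 6.31e-05), whereas Fos stood at 374, 341 and 339.6 FPKM in Tet1-KO libraries, against 342, 368 and 370.4 FPKM in WT libraries and did not pass (adjusted p = 0.788).

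Several stress and metabolic lists held more rises than falls, in part by a margin that depended on scaling. Of 23 NRF2 and glutathione genes tested, 13 rose (56.5%) and 1 fell (4.35%), with a median of 0.46 (0.26 with the length trend removed), and after quantile normalisation 8 rose and 2 fell. Gsta3, a glutathione transferase, stood at 9.17, 10.3 and 9.16 FPKM in Tet1-KO libraries, against 1.49, 0.98 and 0.63 FPKM in WT libraries, a difference of 2.4 ± 0.16 (adjusted p = 1.94e-05), whereas Nqo1, a classic NRF2 target, stood at 220.5, 189 and 235 FPKM in Tet1-KO libraries, against 217, 213 and 218 FPKM in WT libraries and did not pass (adjusted p = 0.921). Without Tet1-KO replicate 3 the falls of this list numbered 5. Of 21 unfolded protein and integrated stress response genes 8 rose (38.1%) and 3 fell (14.3%), after quantile normalisation 7 rose and 7 fell, and without Tet1-KO replicate 3 the falls numbered 7. The ATF4 targets Asns, for asparagine synthetase, and Chac1, a glutathione-degrading enzyme, rose by 1.26 ± 0.09 and 1.24 ± 0.13, while Xbp1, a factor of the unfolded protein response, and Pdia4, a folding enzyme, fell (−0.50 ± 0.13 and −0.52 ± 0.14) (adjusted p of 2.98e-05, 2.66e-04, 0.0132 and 0.0148). Pdia4 did not pass without WT replicate 3 (adjusted p = 0.0502). Of 13 heat shock chaperones 5 rose (38.5%) and 1 fell (7.69%), against 4 and 3 after quantile normalisation, and the rises became 2 without Tet1-KO replicate 1 and 3 without WT replicate 2 or 3. Of 21 cholesterol synthesis genes 16 rose (76.2%) and 1 fell (4.76%), with a median of 0.52 (0.68 with the length trend removed, when 15 rose and 2 fell). Fdps, for farnesyl diphosphate synthase, stood at 57, 68.6 and 48.1 FPKM in Tet1-KO libraries, against 19.7, 18.7 and 17.7 FPKM in WT libraries, a difference of 1.57 ± 0.13 (adjusted p = 6.76e-05). Of 32 cytosolic ribosomal protein genes 25 rose (78.1%) and none fell. Their transcripts are short, with a median of 804 bases, and the list median of 0.67 became 0.22 with the length trend removed, when 16 rose and 2 fell. After quantile normalisation 13 rose and 2 fell. Their rises numbered 13 and 15 without Tet1-KO replicate 1 or 2, and 10 and 12 without WT replicate 2 or 3. Of 29 respiratory chain and citrate cycle genes 13 rose (44.8%) and 2 fell (6.9%), with a median of 0.24, or 0.06 with the length trend removed, when 8 rose and 3 fell, and 7 rises without WT replicate 2 or 3. Of 16 glycolysis genes 5 rose (31.2%) and 4 fell (25%), after quantile normalisation 3 rose and 7 fell, and without WT replicate 2 or 3 a single rise and 2 falls were left. Of 8 metallothionein and zinc transport genes 1 rose (12.5%) and 3 fell (37.5%), against 20.5% and 30.0% of all genes tested. The metallothionein Mt2 stood at 3.62, 5.55 and 3.41 FPKM in Tet1-KO libraries, against 146, 119 and 114 FPKM in WT libraries, a difference of −4.63 ± 0.17 (adjusted p = 7.75e-07), while its neighbour Mt1 stood at 325, 308 and 188 FPKM in Tet1-KO libraries, against 257, 215 and 215 FPKM in WT libraries and did not pass (adjusted p = 0.38) except without Tet1-KO replicate 3 (0.47, adjusted p = 0.00342). With the length trend removed Mt1, a short transcript, was lower (−0.36, adjusted p = 0.0106).

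The share of calls differed between chromosomes. On the X chromosome 35.8% of 363 genes tested were higher and 16.8% lower, against 20.5% and 30.0% over all genes, with a median of 0.13 (0.19 with the length trend removed). The median deviation of X-linked genes from the WT mean was 0.09, 0.11 and 0.15 in the Tet1-KO libraries. On chromosome 18, 8.97% were higher and 47.9% lower of 290, with a median of −0.28 (−0.15 with the length trend removed), and deviations of −0.30, −0.28 and −0.25. On chromosome 11 the shares were 14.9% and 42.6% of 924, with a median of −0.23 (−0.13 with the length trend removed) and deviations of −0.22, −0.29 and −0.17. All 3 Tet1-KO libraries, replicate 3 included, shared these directions. Chromosome number was not measured, and the chromosomes were picked out after their values were seen. Xist, the noncoding RNA that coats an inactive X, chosen after its values were seen, stood at 24.8, 19.3 and 21.3 FPKM in Tet1-KO libraries, against 51.6, 57.2 and 66.5 FPKM in WT libraries, a difference of −1.38 ± 0.13 (adjusted p = 1.15e-04), below WT in every Tet1-KO library.

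On later days the same genes were read in libraries that the day 0 comparison did not use. Tet1-KO day 6 replicate 3 went against its label for several falling genes, and its values are given apart. Marcksl1 stood at 0.09, 0.05 and 0.48 FPKM in Tet1-KO libraries, against 9.46, 9.1 and 11.3 FPKM in WT libraries at day 2 and at 0.11, 0 and 0.41 FPKM in Tet1-KO libraries, against 3.27, 2.27 and 3.77 FPKM in WT libraries at day 4. At day 6 it stood at 0.05, 0 and 56.4 FPKM in Tet1-KO libraries, against 9.17, 4.89 and 6.5 FPKM in WT libraries. It was thus near 0 in 8 of the 9 later Tet1-KO libraries and above every WT library of its day in Tet1-KO day 6 replicate 3. Nid1, Emilin2 and Mt2 stood at 22.1, 28.9 and 2864 FPKM in that library and at most 0.21, 0.26 and 31.8 FPKM in the other 8. In the same library Aldh1a1 was 6.36 FPKM, against 90.7 and 113 in the other Tet1-KO day 6 libraries. Rhox5 and Gas6 stood at 0.75 and 0.46 FPKM there, against 3.4 and 10.5 FPKM or more in WT day 6 libraries. Fgf10 lay between, at 2.96 FPKM, against 4.79 FPKM or more in WT day 6 libraries and at most 0.65 FPKM in the other Tet1-KO day 6 libraries.

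Falls and rises of day 0 differed in how they continued. At day 2 the differences of Nid1 and Fgf10 were −3.47 and −3.16 (adjusted p of 2.70e-04 and 2.70e-04), while Ptn was 0.01 and did not pass (adjusted p = 0.982), with 338, 255 and 167 FPKM in Tet1-KO libraries and 239.8, 187 and 314 FPKM in WT libraries. Aldh1a1 stood at 62.2, 15 and 33.1 FPKM in Tet1-KO libraries, against 1.59, 0.86 and 2.14 FPKM in WT libraries at day 2 (3.72, adjusted p = 0.0065), and Ctgf at 15.7, 1.76 and 10.5 FPKM in Tet1-KO libraries, against 0.11, 0.19 and 0.32 FPKM in WT libraries (2.75, adjusted p = 0.0205). Fabp4, higher in Tet1-KO at day 0, was −1.78 at day 2 and did not pass (adjusted p = 0.0673). Of the 353 genes higher by at least 1 log2 unit at day 0, 311 were tested at day 2. There 153 (49.2%) were higher and 31 (9.97%) lower, against 22.3% higher and 12.6% lower over all genes of that day. The 153 were 6.52% of the 2347 genes higher at day 2. Of the 532 lower genes 360 were tested. At day 2, 93 of them (25.8%) were lower and 70 (19.4%) higher, against 12.6% lower and 22.3% higher over all genes. These 93 were 7.0% of the 1328 genes lower at day 2. The difference itself, Tet1-KO minus WT, changed between day 0 and day 2 in 5683 of 11553 genes tested (49.2%). Of 1821 genes called on both days, 1017 had the same direction and 804 the opposite one. The day 2 counts rest on single libraries, and the 153 became 70, 154 and 68 without Tet1-KO replicate 1, 2 or 3 and 26, 37 and 76 without WT replicate 1, 2 or 3. The 93 became 74, 126 and 76, and 17, 20 and 29, in the same order. Counts over all genes moved as well. Without WT replicate 1 or 2, 55 and 91 of all genes were higher and 54 and 74 lower. Without WT replicate 1, the 26 were of 309 rising genes tested and the 55 of 10411 genes. The 17 were of 329 falling genes tested and the 54 of the same 10411. Without Tet1-KO replicate 2, 4318 of all genes were higher and 2152 lower.

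**Figure D5:**
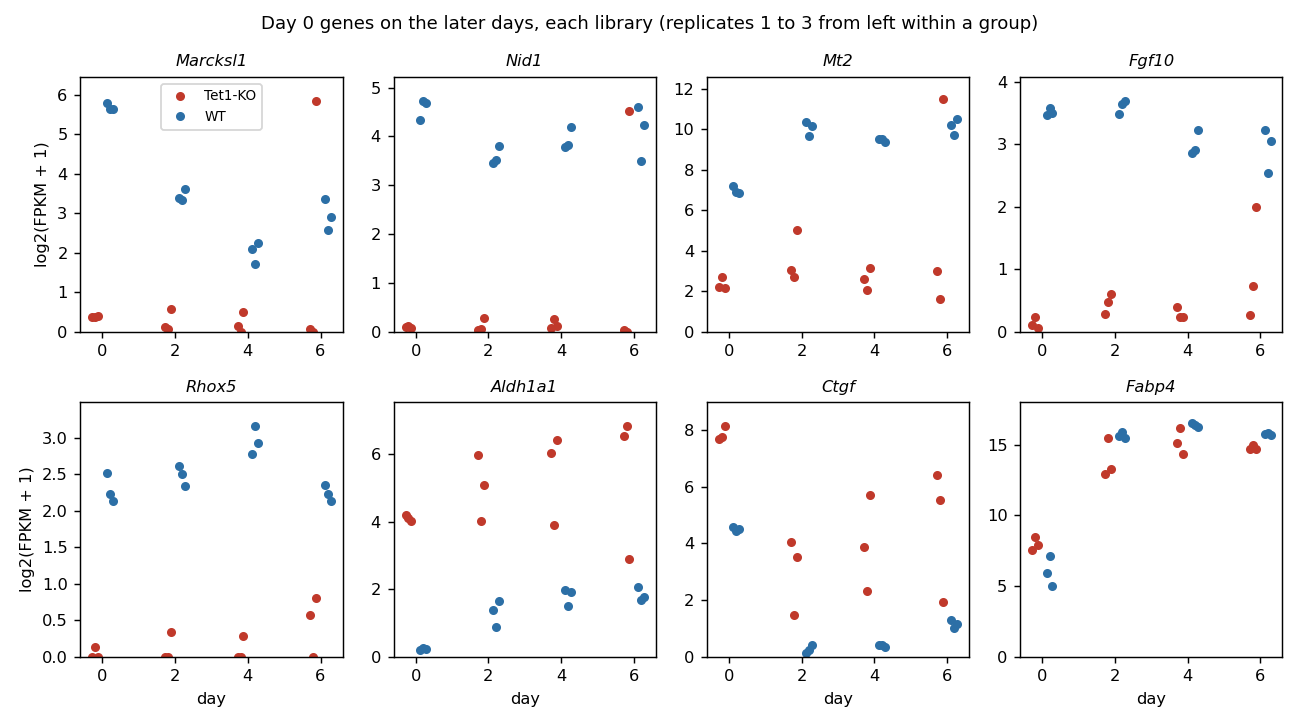
log2(FPKM + 1) of 8 genes in each library of days 0, 2, 4 and 6 (horizontal axis), Tet1-KO left of WT within a day. Marcksl1, Nid1 and Mt2 lie near the bottom in Tet1-KO except for replicate 3 of day 6, Rhox5 stays low in it, Fgf10 lies between the groups, Aldh1a1 and Ctgf are lowest in it among Tet1-KO day 6 libraries, and Fabp4 climbs in both genotypes.

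A second table holds the populations labelled 23-Tet1, 23-CATA and 23-NC, which the labels do not explain, and it was normalised separately, so that levels cannot be set against those above. Tet1 stood at 5.73, 5.42 and 4.76 FPKM in 23-Tet1 and 9.9, 12.3 and 10.1 FPKM in 23-CATA, against 0.04, 0.12 and 0.1 FPKM in 23-NC. Both comparisons share the 23-NC libraries. At day 0, 263 of the 473 falling genes tested there (55.6%) were lower in 23-Tet1 than in 23-NC, against 21.8% of all genes, and 64 were higher. In 23-CATA 116 of them were lower (24.5%, against 9.38% of all genes) and 157 higher (33.2%, against 26.7%). Of 315 rising genes 98 were higher (31.1%) and 108 lower (34.3%) in 23-Tet1, against 35.7% and 21.8% of all genes. In 23-CATA 124 of these 315 were higher (39.4%, against 26.7% of all genes) and 29 lower (9.21%, against 9.38%). The shares depend on scaling. With median-ratio scaling 25.2% of all genes were higher and 29.5% lower in 23-Tet1, and 293 of the falling genes were lower (61.9%). After quantile normalisation 16.3% of all genes were higher and 20.3% lower in 23-CATA, and of the falling genes 121 were higher (25.6%) and 150 lower (31.7%). Without 23-NC replicate 1, 178 of the 470 falling genes tested were lower in 23-CATA (37.9%, against 17.8% of all genes). Of 310 rising genes tested in that fit, 192 were higher (61.9%, against 40.6% of all genes). Several falling genes were hardly expressed in these cells at all: Ndn was at most 0.42 FPKM and Meg3 was listed at 0 in all 9 libraries. Marcksl1 stood at 24.6, 31.6 and 25.5 FPKM in 23-Tet1 and 76.8, 73.5 and 76.9 FPKM in 23-CATA, against 67.8, 50.8 and 46.6 FPKM in 23-NC. Nid1 stood at 34.6, 36.3 and 33 FPKM in 23-Tet1 and 55, 59.5 and 53 FPKM in 23-CATA, against 50.1, 80.8 and 80.3 FPKM in 23-NC, and Emilin2 at 27.8, 29.6 and 26.2 FPKM in 23-Tet1 and 57.7, 60 and 56.6 FPKM in 23-CATA, against 46.7, 48.2 and 50 FPKM in 23-NC. In 23-Tet1 the differences from 23-NC were −0.98, −0.97 and −0.77 (adjusted p of 1.83e-04, 5.42e-04 and 5.73e-06), negative as in Tet1-KO cells at day 0. In 23-CATA they were 0.47, −0.30 and 0.26 (adjusted p of 0.0219, 0.174 and 0.00992). What part the Tet1 level has in these differences was not tested.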

How the data were processed

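The deposited values are FPKM per gene (fragments scaled to transcript length and library total), which the authors made, in a pair of tables with 1 column per library. STAR 2.4.1a, RSEM and the mm10 genome are named in the submitters' processing notes, and the annotation used by the authors is not given in the sources used here. Libraries were matched to groups by sample title and file column.

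The 6 day 0 libraries were fitted with limma 3.58.1 in R 4.3.3 (lmFit and eBayes with trend) on log2(FPKM + 1), for genes with at least 1 FPKM in at least 3 libraries. P-values were adjusted over all genes tested, and a call needed an adjusted p under 0.05. Days 2, 4 and 6 were fitted in the same way, each with its 6 libraries, and the second table with its 9 day 0 libraries in 1 fit. The change between day 0 and day 2 was the interaction over 12 libraries. Python 3.11.15 with pandas 2.3.3, scipy 1.17.1 and matplotlib 3.10.9 served for tables, the exact test of Tet1 and figures. The fits were tested on simulated data.

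Depth was estimated from the lowest values, which are near whole multiples of 1 fragment for the length of the gene (81.0 to 85.8% within 0.15 of a whole number, over 153 to 201 genes per library). RSEM counts need not be whole, so no count test was run. An FPKM value depends on the gene length used and on what else is in the library, and a fragment that matches close copies is divided by estimation.

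Transcript lengths were medians over the transcripts of a gene in the GENCODE M21 annotation of mm10, found for 99.0% of genes tested, and promoters came from RefSeq, build GRCm38.p6. Genes named are a fixed set (TET and DNMT genes, adipogenic regulators and markers), the 15 largest called rises and falls with at least 5 FPKM on average in the higher group and no overlap of groups, genes at 0.1 FPKM or less in one genotype and at least 5 in the other, and of each of 41 lists up to 3 called members each way and 2 that did not pass. Others are said to be named after their values were seen. A few genes that the rule picked are not reported here. The members and lists were chosen with earlier results of these data known. Alternatives are given with their effect in the closing section.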

Additional observations from a re-analysis of the deposited data

Results flagged for a closer look

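Several genes given above had a Tet1-KO minus WT difference that itself changed between day 0 and day 2, tested as the interaction of genotype and day in a limma fit of the 12 libraries of both days. Each value here is the day 2 difference minus the day 0 difference on the log2(FPKM + 1) scale, with its adjusted p over all genes tested. Genes called in opposite directions on the 2 days were picked by those calls, from the same libraries. All 804 such genes passed the interaction test, so for them passing it is no separate support. Of genes higher at day 0 and lower at day 2, Adipoq, which encodes adiponectin, changed by −4.29 ± 0.78 (adjusted p = 0.00213), Plin1, of the lipid droplet coat, by −2.55 ± 0.60 (adjusted p = 0.00597) and Fdps, of cholesterol synthesis, by −3.01 ± 0.49 (adjusted p = 0.00124). Of genes lower at day 0 and higher at day 2, the hyaluronan-binding Tnfaip6 changed by 2.95 ± 0.53 (adjusted p = 0.00195), the progenitor receptor Pdgfra by 2.42 ± 0.39 (adjusted p = 0.00118), the BMP antagonist Fstl1 by 2.54 ± 0.29 (adjusted p = 1.63e-04), the retinoic acid receptor Rarg by 2.37 ± 0.35 (adjusted p = 8.46e-04) and the cell cycle inhibitor Cdkn1b by 1.75 ± 0.23 (adjusted p = 3.96e-04). The imprinted Grb10 and Impact, chosen after their values were seen, changed by 1.44 ± 0.16 (adjusted p = 1.63e-04) and 1.04 ± 0.23 (adjusted p = 0.00466). Fabp4 changed by −3.72 ± 0.88 (adjusted p = 0.00641), with a negative difference at day 2 that did not pass. Ptn, for pleiotrophin, changed by 3.27 ± 0.33 (adjusted p = 8.57e-05), and its difference was no longer called at day 2. Marcksl1, Nid1 and Emilin2 stayed lower at day 2 by a smaller amount, with changes of 2.12 ± 0.20 (adjusted p = 5.29e-05), 1.03 ± 0.20 (adjusted p = 0.00246) and 2.56 ± 0.15 (adjusted p = 3.29e-06). These genes were near 0 in Tet1-KO libraries on both days, so their smaller differences show no recovery in Tet1-KO cells. For Marcksl1, the WT level was lower at day 2 than at day 0. Mt2 was further below WT at day 2, with a change of −1.85 ± 0.66 (adjusted p = 0.0375), which did not pass without any one of Tet1-KO day 2 replicates 1 and 2, WT day 2 replicates 1 and 3, Tet1-KO day 0 replicates 1 and 2 and WT day 0 replicates 1 to 3 (adjusted p of 0.0505 to 0.0894), after quantile normalisation (−1.08, adjusted p = 0.183) or with a pseudocount of 0.1 FPKM (0.0651). The change of Nid1 did not pass with a pseudocount of 0.1 FPKM (adjusted p = 0.0522). Groups of 3 libraries are too small for a test of single outlying libraries, and none was run.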

How the results depend on the processing

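Alternatives were another pseudocount, no filter, quantile and median-ratio scaling, the replicate block, each library left out, all 24 libraries of the table in 1 fit, library weights and the removal of the length trend, the last chosen after seeing the data. Higher and lower genes at day 0 numbered 695 and 1307 with all 24 libraries in 1 fit, where the spread of later libraries enters, and 3568 and 5062 with library weights, which also gave 541 genes higher by at least 1 log2 unit. The cause of the gain with weights was not tested. With the replicate block they numbered 2348 and 3426, B2m was no longer called and Cebpd and Lpl were. Deviations of same-numbered libraries correlated at 0.226, −0.289 and 0.322 for replicates 1, 2 and 3, so not all pairs deviated together. Leaving out 1 library gave 1384 to 2802 higher and 1760 to 4430 lower genes at day 0. Between other groups it gave 2844 to 6729 called genes for 23-CATA, 109 to 6470 at day 2, 8 to 5001 at day 4 and 0 to 3492 at day 6, where the main counts were 4171, 3675, 884 and 1112. The count of 0 came in limma without each of WT day 6 replicates 1, 2 and 3, where 2156, 2131 and 1925 genes had an unadjusted p under 0.05. Day 4 gave 463 with no filter, and day 6 gave 690 with a pseudocount of 0.1 FPKM, 675 with no filter, 1755 after quantile normalisation and 302 with the replicate block. The cause of these shifts was not tested. With a WT library left out, 22 of the named genes, Marcksl1, Ndn and Nid1 among them, fall below the filter by construction and are not tested, as do 4 with a Tet1-KO library left out.

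Of 151 named genes tested, 88 kept their direction and side of the threshold under every alternative that tested them, and 47 calls were lost with all 24 libraries in 1 fit. Direction reversed for B2m (−0.025 after quantile normalisation and −0.052 with the length trend removed), for Mt1 (−0.36 with the length trend removed) and for Rspo2 (−0.22 with library weights). Depth was not tested as a limit on single genes. Tet1 missed the filter, with 1 WT library under 1 FPKM, and its difference of −0.76 FPKM ranged over −0.825 to −0.705 with 1 library left out.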
